A study of Sus scrofa with 24 samples.

Results

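The miR-15, miR-16, miR-195 and miR-497 family comprised 5 of the 1587 miRNA entries of the deposited table, 363 of which were known miRNAs. The members were the entries named ssc-miR-15a, ssc-miR-15b, ssc-miR-16, ssc-miR-195 and ssc-miR-497, and any entry of these names with an arm suffix would also have been taken, but none was listed. The rule used names only and no measured value. Small RNA was sequenced from cultured adipocytes of 6-day-old Yorkshire piglets, 24 libraries in 8 groups of 3. Cells from back subcutaneous fat (BF) and from the fat within the longissimus dorsi muscle (IMF) were each collected on days 0, 2, 4 and 8. All groups grew in the same base medium with serum, and day 0 preceded induction. Induction with 3-isobutyl-1-methylxanthine, dexamethasone and insulin lasted until day 2, insulin alone was given until day 4, and plain growth medium followed until day 8. Day and these additions to the medium cannot be told apart. The cells came from 3 piglets, but the labels did not tie a library to an animal, so every p-value below measures the spread between these libraries. Muscle was digested with a stronger collagenase solution and for longer than fat, and fat source and digestion cannot be told apart.

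A miRNA guides the silencing complex to messenger RNAs that pair with its seed, bases 2 to 8, and lowers their translation and stability. The miR-15/16 family is known to act on cyclins D and E, other regulators of entry into S phase, and the survival protein BCL2, and its members are best known for holding cells in G1. In the study's account, preadipocytes go back into the cell cycle when induced and multiply by mitotic clonal expansion. They stop dividing as they turn into fat cells, which is why a family with this role is of interest along an adipogenic course.

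The mature sequences are shown because the shared seed defines the family and the bases after it separate its members. They were read from the study's miRNA list and matched to the genome assembly Sscrofa11.1. Each is written 5′ to 3′ with the seed in capitals, and the last 2 lines are the relatives miR-424-5p, which has the same seed, and miR-503, which differs from it at base 8.
ssc-miR-15a: uAGCAGCAcauaaugguuugu
ssc-miR-15b: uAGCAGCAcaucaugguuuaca
ssc-miR-16: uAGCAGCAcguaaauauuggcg
ssc-miR-195: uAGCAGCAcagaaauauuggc
ssc-miR-497: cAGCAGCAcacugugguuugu
ssc-miR-424-5p: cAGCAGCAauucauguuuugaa
ssc-miR-503: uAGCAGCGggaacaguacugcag
After base 8 the members formed 2 kinds of tail. The tails of miR-16 and miR-195 shared the run AAAUAUUGGC of 10 bases, and over 21 positions these 2 members differed only by G10A and U11G, counted from the 5′ end with the base of miR-16 first. The tails of miR-15a and miR-497 shared UGGUUUGU, and those of miR-15a and miR-15b shared AUGGUUU, with 18 of 21 positions equal between miR-15a and miR-15b. The tails thus grouped the members differently from their places in the genome, where miR-16 lay beside miR-15a and beside miR-15b, and miR-195 beside miR-497.

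In RefSeq's annotation of Sscrofa11.1 the family had 6 hairpin precursors in 3 pairs. MIR15A and MIR16-2 lay on the plus strand at chr11:17757463-17757684 with 64 bases between them, outside any other annotated gene. MIR15B and MIR16-1 lay on the plus strand at chr13:100083172-100083405, 59 bases apart, in an intron of SMC4, which encodes a core subunit of condensin and runs on the same strand. MIR195 and MIR497 lay on the minus strand at chr12:52422039-52422408, 210 bases apart, in an intron of the long non-coding RNA gene LOC102161115. Each mature sequence had 1 exact copy in the genome, except miR-16, which had 2, at chr11:17757614-17757635 and chr13:100083336-100083357. Reads of miR-16 therefore could not be assigned to the neighbour of miR-15a or of miR-15b. The 2 miR-16 hairpins are shown because they give the same mature sequence, in capitals, from different surroundings.
MIR16-2: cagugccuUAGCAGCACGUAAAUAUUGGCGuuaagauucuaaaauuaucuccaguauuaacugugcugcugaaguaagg
MIR16-1: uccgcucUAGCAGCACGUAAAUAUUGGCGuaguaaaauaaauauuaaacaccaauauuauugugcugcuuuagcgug

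The deposited values, named TPM by the authors, are the reads of an entry scaled to the same total of miRNA reads in each library (RPM), and a library held between 4954845 and 16863560 such reads. miR-21-5p alone took 57.2% ± 2.66 (SD, n = 3) of the reads in BF on day 0 and 35.5% ± 6.64 on day 8, and 57.4% ± 3.92 and 42.5% ± 2.85 in IMF. Since TPM is a share, the differences below are also given on 2 other scales: with libraries scaled by the median ratio over entries, and with the reads of miR-21-5p left out of the total. The mesenchymal markers were all present, with a summed level of 56738 to 103219 TPM over the 24 libraries. Blood markers summed to 0.662 to 8.08 TPM, with miR-144, miR-223 and miR-150 at 0 in 22, 22 and 23 libraries. The highest value of a single blood marker was 6.63 TPM, of miR-486, and 1 read was worth 0.0593 to 0.202 TPM. Of the 6 skeletal muscle markers 5 were listed and summed to 475 to 2361 TPM, nearly all of it miR-1, while miR-206 was at 0 in 13 libraries. The 2 endothelial markers summed to 18.2 to 90.9 TPM. In such bulk cultures, fewer cells of a type and less RNA per cell cannot be told apart.

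All 5 members had reads in all 24 libraries and all 5 passed the filter on low values, a mean of at least 1 TPM, as did 430 entries in all. miR-16 was the most abundant member, with a mean of 103 TPM over the 24 libraries (rank 110 of 1587), and made up 60.8% to 76.2% of the family's reads in every library. miR-15b followed with 32.6 TPM (rank 151), then miR-15a with 6.56 TPM (rank 252), miR-195 with 5.91 TPM (rank 260) and miR-497 with 2.67 TPM (rank 320). These means rest on a median of 1069 reads per library for miR-16, 306 for miR-15b, 68 for miR-15a, 63 for miR-195 and 30 for miR-497. At the median depth, counting error alone was 3.06% of the value for miR-16 and 18.1% for miR-497. Within groups the libraries varied 22.3 times more than counting alone would give for miR-16 and 1.67 times more for miR-497 (chi-square per degree of freedom), so counting error was a small part of the spread for the first and most of it for the second. The summed level of the family was 138 ± 20.6 TPM in BF and 106 ± 7.77 TPM in IMF on day 0, and 254 ± 29.2 and 161 ± 12.3 TPM on day 8.

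miR-16 was at its highest in BF on day 8 and lay higher in BF than in IMF from day 2 on. In BF its 3 libraries held 113, 77.8 and 80.2 TPM on day 0, 94.7, 91.3 and 77.1 TPM on day 2, 128, 162 and 112 TPM on day 4, and 174, 217 and 182 TPM on day 8. In IMF they held 78.5, 75.5 and 62.6 TPM on day 0, 60.7, 70.8 and 73.7 TPM on day 2, 67.4, 67.3 and 87.0 TPM on day 4, and 120, 105 and 106 TPM on day 8. In both sources every library of day 8 lay above every library of the earlier days. Ordered by group mean, BF on day 8 stood clear of the rest, BF on day 4 (134 ± 25.6 TPM) and IMF on day 8 (110 ± 8.42 TPM) overlapped, and the other 5 groups, from 68.4 to 90.3 TPM, each overlapped their neighbours.

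miR-15b stood at a lower level than miR-16 and also lay higher in BF. Its BF libraries held 31.3, 32.0 and 31.0 TPM on day 0, 34.0, 43.2 and 26.2 TPM on day 2, 34.9, 58.9 and 49.99 TPM on day 4, and 41.8, 50.8 and 39.4 TPM on day 8. Its IMF libraries held 24.4, 19.5 and 23.5 TPM on day 0, 26.7, 22.4 and 26.9 TPM on day 2, 21, 21.8 and 27.9 TPM on day 4, and 31.2, 34.5 and 28.1 TPM on day 8. The sources did not overlap on days 0, 4 and 8, while on day 2 the lowest BF library fell within the IMF range. The 3 BF groups from day 2 on overlapped each other.

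miR-15a, the other neighbour of miR-16, stayed within a narrow range in IMF and overlapped between the sources on days 2 and 4. Its BF libraries held 8.23, 6.43 and 6.64 TPM on day 0, 5.94, 4.28 and 2.95 TPM on day 2, 9.84, 5.08 and 6.28 TPM on day 4, and 10.4, 11.8 and 9.08 TPM on day 8. Its IMF libraries held 4.69, 4.48 and 6.33 TPM on day 0, 5.19, 7.03 and 4.98 TPM on day 2, 4.97, 6.37 and 6.25 TPM on day 4, and 8.69, 5.68 and 5.99 TPM on day 8. The 4 IMF groups overlapped one another, and the lowest and highest BF groups were days 2 and 8.

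miR-195 followed another order, with its highest level in IMF. In BF its libraries held 6.78, 7.43 and 6.52 TPM on day 0, 2.60, 5.65 and 4.20 TPM on day 2, 5.39, 6.35 and 3.50 TPM on day 4, and 6.78, 4.68 and 6.86 TPM on day 8. In IMF they held 4.13, 5.14 and 3.11 TPM on day 0, 3.50, 6.53 and 6.46 TPM on day 2, 6.48, 4.57 and 6.34 TPM on day 4, and 11.4, 10.4 and 6.99 TPM on day 8. On day 0 all 3 BF libraries lay above all 3 IMF libraries, and on day 8 all 3 IMF libraries lay above all 3 BF libraries. All neighbours in the order of the 8 group means overlapped, including IMF on day 8 (9.60 ± 2.32 TPM) and BF on day 0 (6.91 ± 0.465 TPM).

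miR-497, encoded beside miR-195, was the least abundant member. In BF its libraries held 2.89, 2.19 and 2.79 TPM on day 0, 0.867, 2.37 and 2.73 TPM on day 2, 2.93, 1.16 and 2.06 TPM on day 4, and 2.80, 3.55 and 1.61 TPM on day 8. In IMF they held 1.69, 2.08 and 2.39 TPM on day 0, 3.80, 2.71 and 3.18 TPM on day 2, 3.46, 2.70 and 3.97 TPM on day 4, and 3.28, 3.54 and 3.30 TPM on day 8. The IMF libraries of day 0 lay below those of every later day, while the BF groups overlapped throughout. The 24 values rest on 7 to 53 reads each.

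**Figure D1:**
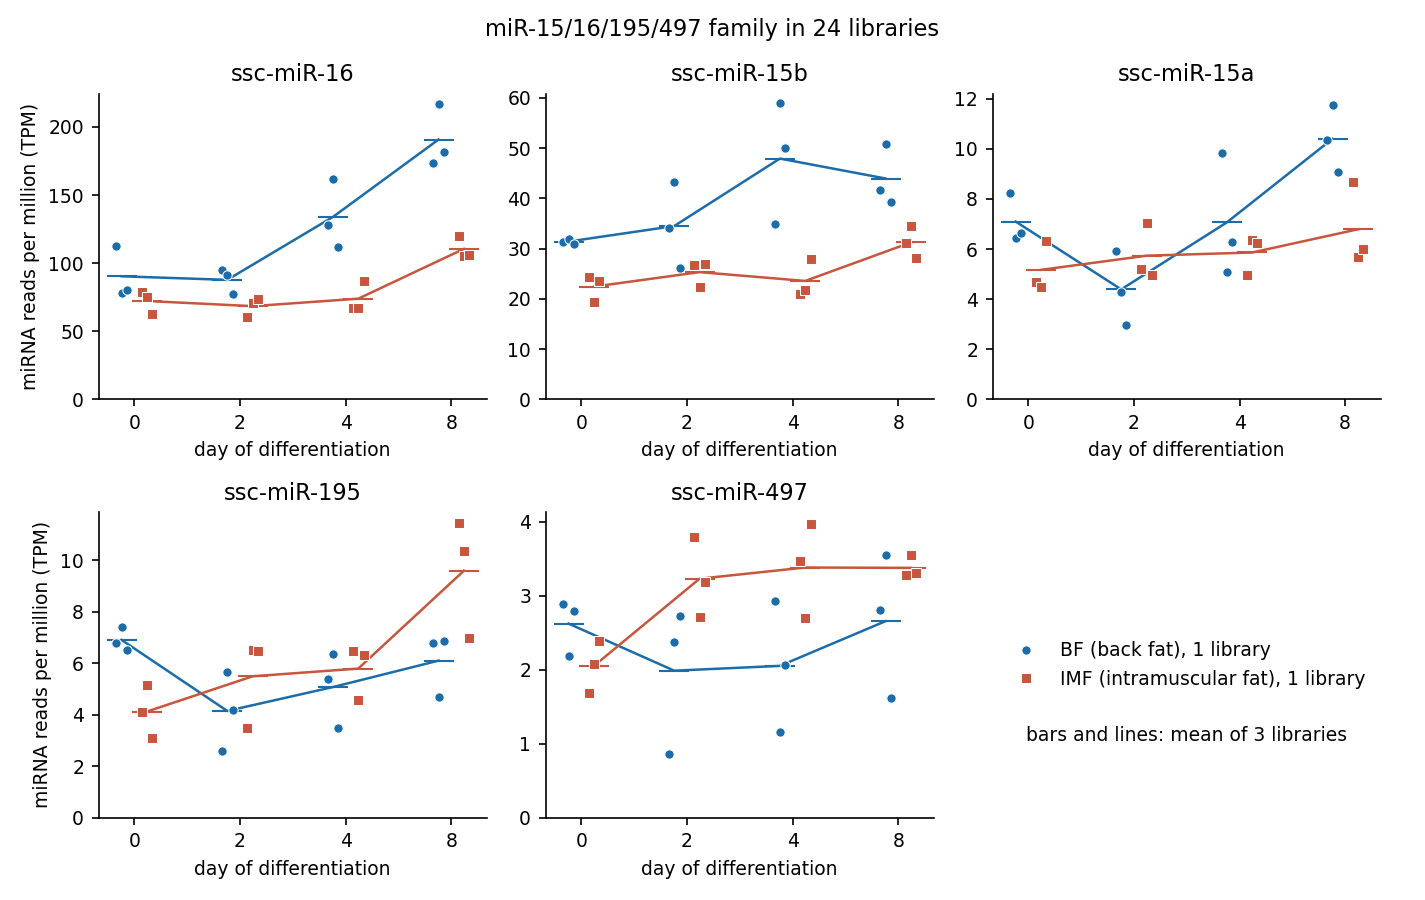
Level of each family member in TPM (reads scaled to a common total of miRNA reads, linear axes from 0) in every library by day of differentiation, with circles for BF, squares for IMF, and bars joined by lines for the mean of 3 libraries. miR-16 rises to 191 TPM in BF and 110 TPM in IMF on day 8, and miR-195 is the only member whose libraries lie apart in opposite directions on days 0 and 8, BF being higher on day 0 and IMF on day 8. The group means of miR-15a and miR-497 also change places between days, with overlap on at least 1 of the days.

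The comparison of the 2 fat sources on the same day asks whether adipocytes of different depots differ at matched stages. A member was called different where the limma adjusted p over the 430 entries was under 0.05 and the fold change above 1.5. By this rule 4 of the 20 member-by-day comparisons were called, all lower in IMF on the TPM scale: miR-195 on day 0, miR-15b and miR-16 on day 4, and miR-16 on day 8. Read shares of most entries were lower in IMF too, with a median log2 difference over the 430 entries of -0.13, -0.14, -0.34 and -0.28 on days 0, 2, 4 and 8. Scaling by the median ratio moved this median by 0.12, 0.13, 0.34 and 0.25, to between -0.03 and -0.00.

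On day 0 all 5 members were lower in IMF on average on all 3 scales, and for 3 of them the libraries of the sources did not overlap, against 47.7% of the 430 entries. Called was 1 of 5 members, against 29.3% of all entries. miR-195 differed by a log2 difference (IMF minus BF, of TPM + 1) of -0.64 with a 95% interval of -1.09 to -0.19 (limma adjusted p = 0.0430). The call was narrow: on the median-ratio scale the difference was -0.50 and on the scale without miR-21-5p -0.70, neither called, and leaving out any library other than IMF replicate 2 also lost it, with values from -0.68 to -0.49. Without IMF replicate 2 the call held, at -0.78. miR-15b passed the adjusted p but not the fold change, at -0.47 (limma adjusted p = 0.0374), and miR-15a, at -0.40, passed neither (limma adjusted p = 0.149). Same-numbered libraries deviated together on this day, and with the replicate number as a block the adjusted p of limma was 0.0470 for miR-195 and 0.0624 for miR-15b, which then passed neither criterion.

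On day 2 no member was called, against 12.3% of all entries, and only miR-16 had no overlap between the sources, against 33.3%. Its log2 difference of -0.35 had a 95% interval of -0.69 to -0.02 (limma adjusted p = 0.158). At an unadjusted p under 0.05 the count of members was 1 of 5, and neither edgeR nor DESeq2 called any member on this day. The skeletal muscle sums were 475 to 544 TPM in BF and 814 to 1065 TPM in IMF, and the blood sums 1.86 to 2.52 and 1.31 to 1.70 TPM, both without overlap. In these libraries 1 read was worth 0.0764 to 0.124 TPM, so the blood sums rest on few reads. The part of these markers in the result was not tested.

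On day 4 miR-15b and miR-16 were the 2 members called, 2 of 5 against 36.3% of all entries, and the 2 without overlap, against 50.2%. miR-15b differed by -0.97 (95% interval -1.53 to -0.42, limma adjusted p = 0.00940) and miR-16 by -0.84 (-1.36 to -0.32, limma adjusted p = 0.0141). Both differences exceeded the all-entry median of -0.34. On the scale without miR-21-5p both calls held, at -0.91 and -0.77. Neither was called in edgeR, at -0.57 and -0.39, or in DESeq2, at -0.60 and -0.43. On the median-ratio scale both values were smaller, -0.56 and -0.42, and neither was called (limma adjusted p = 0.0935 and 0.153). The call of miR-16 was also lost without BF replicate 2, at -0.70, and without IMF replicate 1 or 2, at -0.78 each. On the median-ratio scale miR-497 was called higher in IMF, at 0.86 (limma adjusted p = 0.0315). Markers of 3 other cell types were higher in BF on day 4 without overlap: the endothelial sums were 53.6 to 86.4 TPM in BF and 18.7 to 30.9 TPM in IMF, the skeletal muscle sums 1042 to 1526 and 696 to 985 TPM, and the blood sums 2.81 to 6.37 and 0.662 to 1.60 TPM. Their part in the result was not tested.

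On day 8 the members split in direction. The libraries of 4 of the 5 members did not overlap, against 51.2% of all entries, with miR-16, miR-15b and miR-15a lower and miR-195 higher in IMF on all 3 scales. Called was miR-16 alone, 1 of 5 against 37.2% of all entries, with a difference of -0.78 (95% interval -1.13 to -0.43, limma adjusted p = 0.00151). The call of miR-16 held with each library left out and on the scale without miR-21-5p, at -0.62. On the median-ratio scale the difference of -0.46 lay below the fold change (limma adjusted p = 0.0176), as did those of edgeR and DESeq2, at -0.44 and -0.50, so the call was lost in all 3. miR-195 was higher in IMF by 0.57 (95% interval 0.04 to 1.09, limma adjusted p = 0.0776), which was not called. On the median-ratio scale it was called at 0.84 (limma adjusted p = 0.0118), and edgeR and DESeq2, which test the whole reads with their own scaling, called it at 0.96 and 0.91. On day 8 the endothelial markers summed to 51.2 to 90.9 TPM in BF and 24.6 to 34.8 TPM in IMF, and the blood markers to 3.71 to 4.44 and 6.68 to 8.08 TPM, both without overlap, and their part in the result was not tested.

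**Figure D2:**
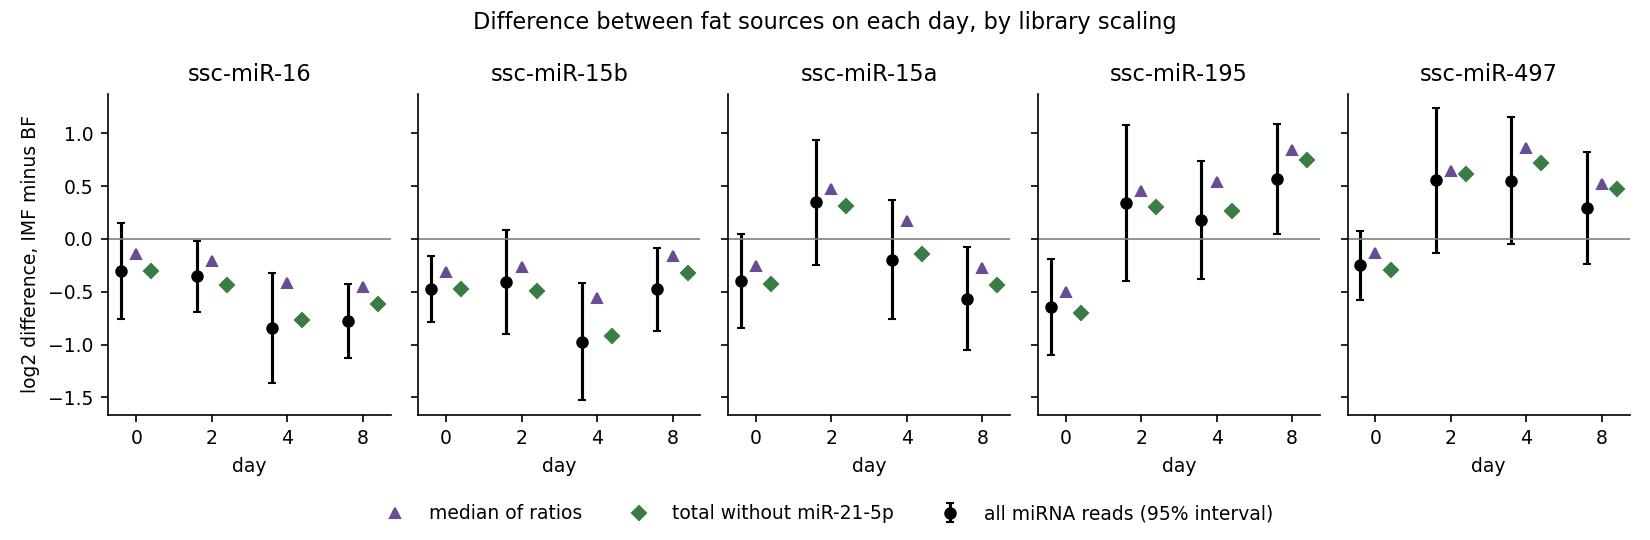
Log2 difference between the sources (IMF minus BF) for each member on each day, with black circles and 95% intervals for TPM, triangles for libraries scaled by the median ratio, and diamonds for totals without miR-21-5p. miR-16 and miR-15b lie below 0 on every day and scale, miR-195 goes from below 0 on day 0 to 0.57 on day 8, and miR-15a on day 4 lies below 0 on 2 scales and above 0 on the median-ratio scale.

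The comparison between days asks which members changed along differentiation. From day 0 to day 8 miR-16 rose in both sources, miR-195 rose in IMF, and no member was called lower in either source on the TPM scale. No member was called between neighbouring days in either source. The blood markers moved with the days too, from 1.19 to 1.99 TPM on day 0 to 3.71 to 4.44 TPM on day 8 in BF and from 1.31 to 1.87 to 6.68 to 8.08 TPM in IMF. The skeletal muscle sums went from 818 to 1012 TPM to 1324 to 2361 TPM in BF and overlapped in IMF. None of this was tested for its part in the members' changes.

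In BF, miR-16 rose from 90.3 ± 19.6 TPM on day 0 to 191 ± 22.9 TPM on day 8, a log2 change of 1.08 (95% interval 0.65 to 1.52, limma adjusted p = 0.000451). This was 1 of 5 members called, against 42.8% of all entries, and 3 of 5 without overlap, against 53.7%. The call held with each library left out, on the median-ratio scale at 0.90, and in edgeR and DESeq2 at 0.95 and 0.92. On the scale without miR-21-5p, which moved the all-entry median by -0.52, the change was 0.50 and was not called (limma adjusted p = 0.111). miR-15a and miR-15b did not overlap between these days either, with changes of 0.49 and 0.46 (limma adjusted p = 0.0855 and 0.0717), and without miR-21-5p their values were -0.036 and -0.11. miR-195 and miR-497 ended near their level of day 0 in TPM, and without miR-21-5p miR-195 was called lower, at -0.73.

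No member was called in the steps within the BF course. From day 0 to day 2 the libraries of miR-15a and miR-195 did not overlap, with log2 changes of -0.62 and -0.66 (limma adjusted p = 0.179 and 0.167), 2 of 5 members without overlap against 29.8% of all entries, and 4.19% of entries were called. From day 2 to day 4 and from day 4 to day 8 miR-16 had no overlap, with 0.59 and 0.52 (limma adjusted p = 0.130 and 0.197). It was 1 of 5 members each time, against 34.9% and 26.5% of all entries without overlap, and 6.05% and 3.02% of all entries were called. Marker sums moved without overlap between days 0 and 4 but not from day 4 to day 8. Skeletal muscle went from 818 to 1012 TPM on day 0 to 475 to 544 TPM on day 2 and 1042 to 1526 TPM on day 4. From day 2 to day 4 endothelium went from 26.4 to 53.5 TPM to 53.6 to 86.4 TPM, and blood from 1.86 to 2.52 TPM to 2.81 to 6.37 TPM. Their part in the members' values was not tested.

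In IMF, miR-16 rose from 72.2 ± 8.44 TPM on day 0 to 110 ± 8.42 TPM on day 8, a log2 change of 0.61 (95% interval 0.30 to 0.92, limma adjusted p = 0.0135). miR-195 rose from 4.13 ± 1.01 to 9.60 ± 2.32 TPM, a change of 1.04 (95% interval 0.49 to 1.60, limma adjusted p = 0.0156). These were 2 of 5 members called, against 30.5% of all entries. The all-entry median was 0.07. For 4 of the 5 members the libraries of the 2 days did not overlap, against 48.8% of all entries, with miR-15b at 0.46 and miR-497 at 0.53 (limma adjusted p = 0.0459 and 0.0219), both under the fold change. All of these changes were upward.

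The IMF calls depended on scale, on the filter and on single libraries. With no filter neither was called. On the median-ratio scale both held, at 0.59 and 1.02, and edgeR and DESeq2 called miR-195, at 1.11 and 1.10, but not miR-16, whose 0.51 and 0.50 lay under the fold change. On the scale without miR-21-5p neither was called, at 0.18 for miR-16 and 0.72 for miR-195. The call of miR-16 was lost without IMF day 0 replicate 3, at 0.51, or day 8 replicate 1, at 0.55. That of miR-195 was lost without the same libraries, at 0.89 and 0.91, or without day 8 replicate 2, at 0.98.

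Within the IMF course no step was called for any member. Between days 0 and 2, miR-497 was the 1 member of 5 without overlap, against 19.8% of all entries, at 0.47 (limma adjusted p = 0.263), and between days 2 and 4 no member was, against 22.1%. In these 2 steps limma called 0% of all entries, though 68 and 65 entries had an unadjusted p under 0.05, and edgeR called 7 and 1 and DESeq2 9 and 2. Among the members, miR-497 alone had such an unadjusted p, in the step from day 0 to day 2, and neither count test called a member. From day 4 to day 8, miR-15b, miR-16 and miR-195 did not overlap, 3 of 5 against 38.4% of all entries, with 0.40, 0.58 and 0.63 (limma adjusted p = 0.155, 0.0423 and 0.122). The blood sums went from 0.662 to 1.60 TPM to 6.68 to 8.08 TPM in this step, and their part in it was not tested. The share of all entries called in that step was 13%, and miR-16 lay just under the fold change.

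Whether a member's course differed between the sources was tested in a single fit of all 24 libraries. When the 3 interaction terms were tested together (F test), miR-195 was the only member past the threshold (limma adjusted p = 0.0442), 1 of 5 against 31.6% of all entries. The adjusted p-values of the others were 0.123 for miR-15a, 0.198 for miR-16, 0.206 for miR-497 and 0.300 for miR-15b. The miR-195 test lay close to the threshold. With a pseudocount of 0.1 TPM its limma adjusted p was 0.0546, with no filter 0.108, and in edgeR the adjusted p was 0.0504. On the other 2 scales the limma adjusted p of miR-195 was 0.0212 and 0.0395. It passed in 12 of the 24 fits that left out a library, with adjusted p from 0.0246 to 0.146.

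The change of miR-195 from day 0 to day 8 was larger in IMF than in BF by 1.21 on the log2 scale (95% interval 0.47 to 1.95, limma adjusted p = 0.0152), 1 of 5 members against 20.7% of all entries. This difference was 1.35 on the median-ratio scale and 1.45 without miR-21-5p, and edgeR and DESeq2 gave 1.33 and 1.46, all past the threshold. It also passed with each of the 24 libraries left out, at 1.06 to 1.40. miR-16 rose in both sources, and its rise was smaller in IMF by an amount that did not pass, -0.47 (95% interval -1.01 to 0.06, limma adjusted p = 0.203). For miR-15a, miR-15b and miR-497 the differences of -0.17, -0.00 and 0.54 had intervals of -0.83 to 0.50, -0.58 to 0.57 and -0.19 to 1.28, so these data leave room for differences up to those bounds.

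**Figure D3:**
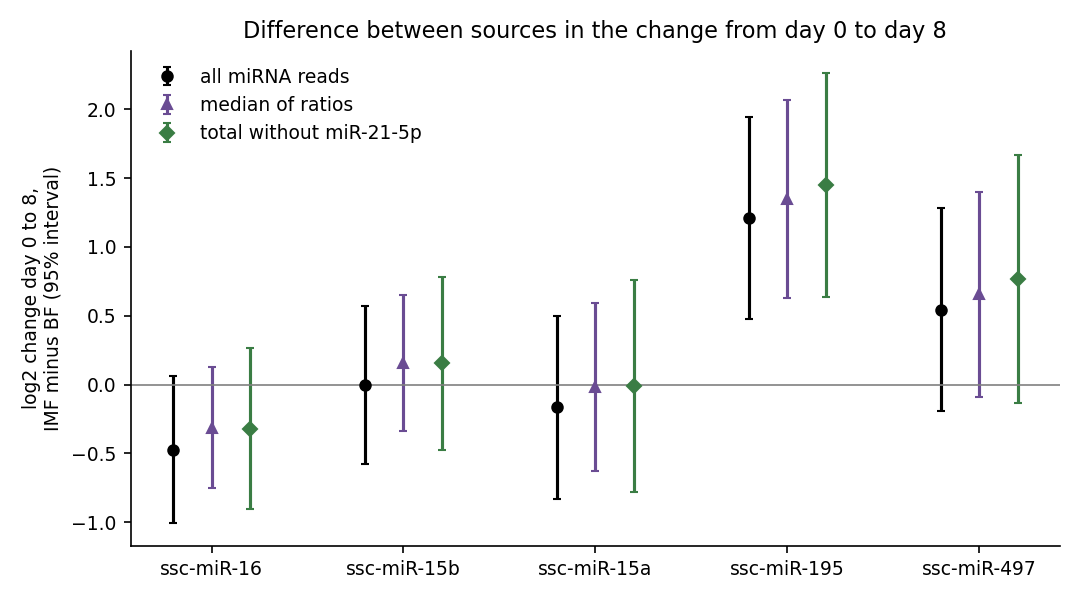
Difference between the sources in the log2 change from day 0 to day 8 (IMF minus BF) for each member, with 95% intervals from the fit of 24 libraries, on the TPM scale (circles), the median-ratio scale (triangles) and without miR-21-5p (diamonds). Only the intervals of miR-195 lie clear of 0 on all 3 scales, with values of 1.21, 1.35 and 1.45.

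Ratios of neighbouring members in a library are free of the library total. miR-16, which has 2 genes, had 12.6 ± 0.943 reads for each read of miR-15a in BF on day 0 and 18.4 ± 1.63 on day 8, and the libraries of these days did not overlap. In IMF the ratio was 14.5 ± 3.98 and 16.7 ± 2.50, with overlap. On day 2 it was 21.1 ± 5.09 in BF and 12.2 ± 2.41 in IMF, again without overlap. miR-195 had 2.69 ± 0.607 reads for each of miR-497 in BF and 2.07 ± 0.667 in IMF on day 0, and 2.66 ± 1.48 and 2.84 ± 0.690 on day 8, and none of its 6 comparisons lacked overlap. With 3 libraries against 3 the two-sided exact permutation test cannot give a p below 0.1, and the smallest of the 12 tests was 0.1 (0.600 after Benjamini-Hochberg adjustment over the 12).

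The 4 relatives by seed were each measured in all 24 libraries. miR-424-5p, which shares the whole seed but lies on the X chromosome (chrX:110387948-110387969, minus strand), was called lower in IMF on every day and on all 3 scales. Its BF libraries held 35.3, 25.5 and 34.5 TPM on day 0 and 65.3, 73.5 and 50.7 TPM on day 8, and its IMF libraries 14, 15.1 and 15.2 TPM and 30.0, 31.2 and 33.4 TPM. The sources did not overlap on any day. Its log2 differences were -1.04, -1.02, -1.70 and -0.96 on days 0, 2, 4 and 8 (limma adjusted p = 0.00763, 0.0304, 0.000364 and 0.000919). It rose from day 0 to day 8 in both, by 0.97 in BF and 1.05 in IMF (limma adjusted p = 0.00185 and 0.00181), and without miR-21-5p the change in BF, 0.40, was not called. Of the summed TPM of the family and miR-424-5p, which share the seed AGCAGCA, miR-424-5p made up 18.7% ± 2.35 in BF and 12.3% ± 1.22 in IMF on day 0.

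miR-503, encoded near miR-424-5p and differing from the family at base 8, was called lower in IMF on days 0 and 4, at -0.86 and -1.82 (limma adjusted p = 0.00495 and 0.000357). On day 2 the sources did not overlap either, at -1.18 (limma adjusted p = 0.0592), and it was called on the median-ratio scale, without miR-21-5p, in edgeR and in DESeq2, at -1.04, -1.28, -1.08 and -1.11. On day 4 it held 19.6 ± 6.54 TPM in IMF and 70.1 ± 11.8 TPM in BF. On day 8 the sources did not overlap, and the difference of -0.58 lay just under the fold change (limma adjusted p = 0.0353). miR-103, whose seed begins 1 base further along, was called lower in IMF on the same days, at -0.67 and -0.74 (limma adjusted p = 0.00628 and 0.0190), and held 599 to 1360 TPM over the libraries. On the median-ratio scale miR-103 was called on neither day, at -0.50 and -0.31. Without miR-21-5p in the total, miR-503 and miR-103 were called lower from day 0 to day 8 in BF. miR-107 was called in none of the 12 comparisons in the main fits, those of log2(TPM + 1) over 430 entries and 6 libraries without a replicate block. On day 0 its difference of -0.59 (limma adjusted p = 0.0611) was called lower in IMF with the replicate block, in one fit of all 24 libraries and among entries with a mean of 10 TPM or more (limma adjusted p = 0.0389, 0.0319 and 0.0414), and from day 0 to day 8 in BF it was called lower on the median-ratio scale, without miR-21-5p, in edgeR and in DESeq2, at -0.76, -1.17, -0.72 and -0.75.

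**Figure D4:**
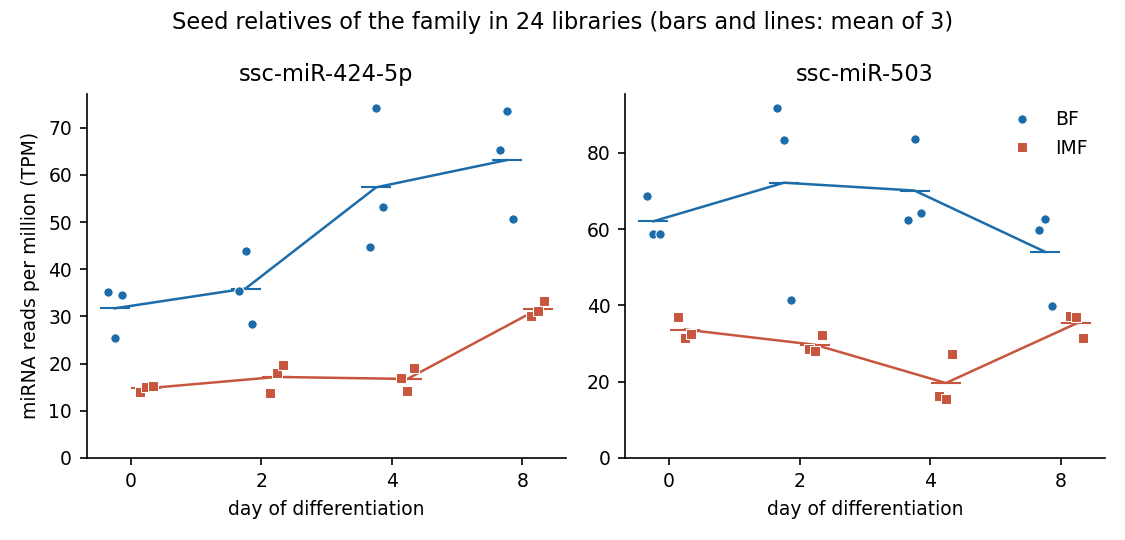
Level of miR-424-5p and miR-503 in TPM (linear axes from 0) in every library by day, with circles for BF, squares for IMF, and bars joined by lines for the mean of 3 libraries. The IMF libraries of miR-424-5p lie below all BF libraries of the same day, and those of miR-503 are lowest on day 4, at 15.4 to 27.2 TPM.

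Other miRNAs with a known role in the cell cycle were counted by list. The first list held 12 entries, every let-7 entry with miR-34a and miR-34c, of families known to restrain the cell cycle. It includes opposite arms such as let-7d-3p and let-7i-3p, which do not carry the let-7 seed. Of the 12, 4, 1, 5 and 5 were called lower in IMF on days 0, 2, 4 and 8 and none higher, with differences from -1.27 to 0.63 over the days. Of all 430 entries, 68, 28, 124 and 108 were called lower on these days. Their medians were -0.50, -0.15, -0.24 and -0.27, and on the median-ratio scale those of days 4 and 8 turned to 0.12 and 0.06. On that scale 2, 0, 2 and 1 of the 12 were called lower and 0, 1, 0 and 2 higher on days 0, 2, 4 and 8, so on days 2 and 8 more were called higher than lower, as in edgeR. DESeq2 called 1 lower and 0 higher on day 2, and 1 lower and 2 higher on day 8. miR-34a was the member with the largest rise in BF, 1.46 from day 0 to day 8, and rose by 0.75 in IMF. Of 9 entries known to favour the cell cycle, the miR-17-92 cluster with miR-221-3p and miR-222, 8 were tested, and 1, 2, 8 and 8 were called lower in IMF on days 0, 2, 4 and 8. Their medians were -0.24, -0.55, -1.14 and -0.88 and stayed below 0 on all 3 scales. On the median-ratio scale only 0, 0, 3 and 3 of 8 were called on these days. edgeR and DESeq2 each called 0 on days 0 and 2, and 4 and 5 on each of the later days. The largest of these differences was that of miR-222 on day 4, -2.14. From day 0 to day 8, 3 of 8 rose in BF and 0 in IMF, and 2 and 2 of the 12 entries of the first list rose and fell in BF, while 2 rose in IMF. let-7d-3p was 1 of those that fell in BF, at -0.59, and let-7i-3p 1 of those that rose in IMF, at 0.95. Of all 430 entries, 120 rose and 64 fell in BF, and 85 rose and 46 fell in IMF. Without miR-21-5p in the total, 1 of the 8 was called higher in BF, and of the 12, 1 was called higher and 6 lower in BF and 0 higher and 1 lower in IMF.

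The likeness of course was measured as Pearson's r over the 8 group means of log2(TPM + 1), a description over groups that share libraries' scaling, not a test. The known entries most like miR-16 were miR-155-5p (r = 0.995) and miR-148b-3p (r = 0.985), and those most like miR-15b were miR-30d (r = 0.990) and its seed relative miR-424-5p (r = 0.986). miR-15a was nearest to miR-2366 (r = 0.884) and let-7e (r = 0.869), miR-195 to miR-151-5p (r = 0.841) and let-7e (r = 0.806), and miR-497 to let-7i-3p (r = 0.893) and miR-708-3p (r = 0.688). Within the family, r was 0.884 for miR-16 and miR-15b, 0.804 for miR-16 and miR-15a, and 0.726 for miR-195 and miR-497, each pair being encoded side by side. Over the other 7 pairs, r was 0.568 for miR-15a and miR-15b, 0.528 for miR-15a and miR-195, 0.288 for miR-16 and miR-195, 0.254 for miR-15a and miR-497, 0.105 for miR-15b and miR-195, -0.17 for miR-16 and miR-497 and -0.39 for miR-15b and miR-497.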

How the data were processed

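miRNAs were counted by the authors in 24 libraries. Per the study's methods and the submitters' processing notes, clean reads were mapped to Sscrofa11.1 with Bowtie, known miRNAs were found by comparison with miRBase, new ones with miRDeep2, and DESeq2 was used for testing; the versions used for the miRNA data are not given in the sources used here. The deposited values, in RPM and named TPM by the authors, are reads scaled to a common total of reads on the listed miRNAs in each library. All 38088 values were whole multiples of 1 read within 0.01 read (100%), and these reads were recovered. Intervals from reads cover counting error only, as no molecular identifiers are named in the sources used here.

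Columns were matched to the labels by name, and 0 columns were left over. Entries were kept where their mean reached 1 TPM (430), and log2(TPM + 1) was tested with limma 3.58.1 (R 4.3.3, moderated with a mean trend, two-sided), using the 6 libraries of the 2 groups compared, or all 24 for the interaction. A call needed a Benjamini-Hochberg adjusted p under 0.05 and a fold change above 1.5. Fold changes on this scale understate those of entries near 1 TPM. edgeR 4.0.16 and DESeq2 1.42.0 were run on the recovered reads as alternatives. The tests were checked on simulated reads.

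Named were the 5 members, their 4 seed relatives, the called members of 2 cell cycle lists, and the 2 known entries most alike in course. The members and lists were chosen with earlier results of these data known. The values given come from fits without a replicate block, and the block was an alternative. The deviations of every same-numbered pair correlated above 0.1 in 1 of 12 comparisons, BF against IMF on day 0 (r = 0.188, 0.509 and 0.205), where the block's value is given if it changes a result. Sequences came from the study's miRNA list, and positions from RefSeq's annotation of Sscrofa11.1.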

Additional observations from a re-analysis of the deposited data

Results flagged for a closer look

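The source-by-day interaction of miR-195 passed the F test over all 24 libraries (limma adjusted p = 0.0442). It did not pass with a pseudocount of 0.1 TPM (limma adjusted p = 0.0546), with no filter (limma adjusted p = 0.108) or in edgeR (adjusted p = 0.0504). The change of miR-195 from day 0 to day 8 was larger in IMF than in BF by 1.21 on the log2 scale. miR-503, a relative with a seed that differs at base 8, passed the same F test (limma adjusted p = 0.0357), though not with no filter (limma adjusted p = 0.0938) or in edgeR (adjusted p = 0.0621), and its change from day 4 to day 8 was larger in IMF by 1.24 (95% interval 0.53 to 1.95, limma adjusted p = 0.0169). What lies behind these differences was not tested.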

How the results depend on the processing

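Of the members' calls, 1 between days in BF, 2 between days in IMF, 4 between the sources and 1 interaction, the IMF count became 4 with a pseudocount of 0.1 TPM, 5 by the adjusted p alone, 1 with a mean of at least 10 TPM, 0 with no filter, 0 without miR-21-5p in the total, and 1 in edgeR and in DESeq2. The count between sources became 1 with no filter, 2 on the median-ratio scale and 1 in edgeR and in DESeq2. Without the filter the call left was miR-16 on day 8, lower in IMF. None of the 4 calls, all lower in IMF, was left on the median-ratio scale or in the count tests, whose calls were higher in IMF: miR-195 on day 8 in all 3, and miR-497 on day 4 on the median-ratio scale. The BF count became 2 in one fit of all 24 libraries. Without miR-21-5p in the total it stayed at 1, but the call was miR-195 lower on day 8, at -0.73, in place of miR-16 higher. The interaction count became 0 with the smaller pseudocount, no filter and edgeR. It was also 0 with the higher minimum, which leaves miR-195 untested here and in the IMF and source counts. Leaving out 1 library gave 1 in BF, 0 to 3 in IMF, 3 to 5 between sources and 0 to 2 for the interaction. Without miR-21-5p in the total, the BF changes of miR-15a and miR-15b turned to -0.036 and -0.11. The cause of these changes was not tested. With the replicate block the counts were 1, 2, 4 and 1, and no member's call changed, while the relative miR-107 gained a call on day 0 and miR-424-5p lost its call between the sources on day 2 (limma adjusted p = 0.0876), where the numbers did not pair the libraries.

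Over all entries, calls moved by over 1.5 times from BF day 0 to 2 (18, against 56 in edgeR and DESeq2, 35 on the median-ratio scale, 46 in one fit, 5 with no filter and 0 with the block), day 2 to 4 (26, against 17 in edgeR, 54 in DESeq2, 104, 0 and 42 with the block) and day 4 to 8 (13, against 24 in DESeq2, 81, 3 and 44 without miR-21-5p). The share of calls lower in IMF on days 0, 2, 4 and 8 was 54.0%, 52.8%, 79.5% and 67.5%, and 37.6%, 40%, 56.7% and 43.5% on the median-ratio scale. The share of calls higher on day 8 than day 0 was 65.2% in BF and 64.9% in IMF, and 28.3% and 22.8% without miR-21-5p, with 52.4% in BF on the median-ratio scale. Between BF days 2 and 4, BF days 4 and 8 and IMF days 4 and 8 it was 96.2%, 76.9% and 94.6%, against 73.9%, 62.5% and 77.1% on the median-ratio scale and 78.3%, 9.09% and 73.7% without miR-21-5p. On day 8 the share lower in IMF was 56.6% without miR-21-5p. Between the sources on day 2, 53 calls became 9 with the block and 2 with no filter. With no filter, calls also went from 126 to 76 on day 0, from 156 to 50 on day 4, from 56 to 28 between IMF days 4 and 8, and from 131 to 70 between IMF days 0 and 8, the last being 76 with a mean of at least 10 TPM. That minimum also moved the calls from 184 to 105 between BF days 0 and 8 and from 160 to 101 between the sources on day 8. The minimum left 224 entries to test in place of 430, and the share called rose. Between IMF days 0 and 8 it went from 30.5% to 33.9%, and between BF days 0 and 8 from 42.8% to 46.9%. Between the sources on day 8 it went from 37.2% to 45.1%. With no filter 1587 entries were tested. The 0 calls of the first 2 IMF steps became at most 9 and 2, in DESeq2. Depth limits miR-497 most, with 7 to 53 reads a library, and reads of miR-16 and miR-195 that miss the bases by which they differ would be uncertain.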
